A study of Mus musculus with 21 samples.

Results

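Lgr5GFP high and Lgr5GFP low cells of the stomach corpus of control mice were compared on 6 microarrays, 3 of each population, out of 21 arrays in the study. Membership was taken from the sample titles, which name the arrays Uninj High and Uninj Low, and not from any measured value. Both groups came from mice with a green fluorescent protein (GFP) reporter of Lgr5, and the cells were separated by GFP brightness in a fluorescence-activated cell sorter (FACS). The labels give their treatment as none. No group injected with vehicle is among the samples used here. Of the remaining arrays, 3 hold Lgr5GFP negative cells of control mice. The others hold high, low and negative cells of mice that received tamoxifen, 0.27 mg per g, by injection 24 hours earlier (4 arrays each). The allele that carries the reporter, the strain, the sex and the age of the mice, and the gates that set high apart from low, are not given in the sources used here. The series' design text calls the arrays technical replicates from individual sorting runs, and replicates 1, 2 and 3 of each control population share a run number. Nothing says that the runs held separate animals, so p-values measure a spread between samples that may be technical. Unless said otherwise, that spread is pooled over all 21 arrays in 1 fit, not taken from these 6 alone.

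Lgr5 is a receptor for R-spondins, secreted proteins that raise Wnt signalling, and it marks stem cells in several epithelia of the gut. In the corpus, the acid-secreting part of the stomach, the series title places Lgr5 in chief cells, which lie at the base of the gland and store digestive zymogens. The glands also hold acid-secreting parietal cells, mucous neck and surface pit cells, endocrine cells such as the histamine-making enterochromaffin-like cells, and tuft cells, which sense chemical cues and make eicosanoids. The comparison asks which genes differ between the brighter and the dimmer reporter cells of untreated mice.

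Expression was read as log2 signal for 22180 genes, and a difference of 1 is 2-fold. The median over genes on the 6 arrays was 4.53 to 4.62, and Pearson correlations between them ran from 0.943 to 0.983. High replicate 1 (high 1) stood apart: its correlations with high 2 and high 3 were 0.972 and 0.967, against 0.983 between those. Low 1, of the same run, had 0.974 and 0.971 with low 2 and low 3, against 0.981 between those. As a guide to background, the 95th percentile of the values of 1105 olfactory receptor genes was 4.25. Folds against a group mean at or under that level are given as at least the fold above it. The number of arrays limits the precision of every value.

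The reporter follows Lgr5, whose own level therefore serves as a check of the labels and is no finding. Lgr5 read 8.40, 8.80 and 9.15 in high 1, 2 and 3, and 7.49, 7.48 and 7.71 in low 1, 2 and 3, with no overlap, and 4.06 to 4.82 in negative cells. The difference was 1.23 ± 0.22 (SE), or 2.34-fold. Cells sorted as low therefore still had Lgr5 signal far above that of negative cells. Chief cell markers were bright in both populations. Pgc, which encodes pepsinogen C, lay between 13.14 and 13.43 on the 6 arrays, near the highest value of the whole table, 13.55. Its mean in negative cells was 13.23, so its level did not set the sorted populations apart from them. Cblif, which encodes gastric intrinsic factor, lay between 12.47 and 12.76, with a mean of 10.98 in negative cells. Epcam, a surface protein of epithelial cells, lay between 9.20 and 9.81.

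Of 22180 genes, 297 differed between high and low cells (1.34%, limma, Benjamini-Hochberg adjusted p under 0.05). They split into 154 higher in high cells (0.694%) and 143 higher in low cells (0.645%). The difference was at least 2-fold for 129 and 104 of these, and at least 4-fold for 27 and 28. The 3 high and 3 low arrays did not overlap for any of the 297, where 16.1% of all genes had non-overlapping arrays in 1 direction or the other. This rests on the same values as the calls and is no added support for them. The median difference over all genes was 0.00, and 49.2% of genes were positive. The count rested on single arrays. It was 77 without high 1 (21 higher in high, 56 higher in low), 94 without low 2 and 164 without high 2, and 421 without high 3. Fitted to these 6 arrays alone, 147 genes passed, 117 of the 297 among them. With the sorting run as a block in those 6 arrays 517 passed, 326 of them higher in high, and 222 of the 297 were among them. Where no setting is named, called and passed refer to the fit of all 21 arrays without a block. At an unadjusted p under 0.05 there were 2330 genes.

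**Figure D1:**
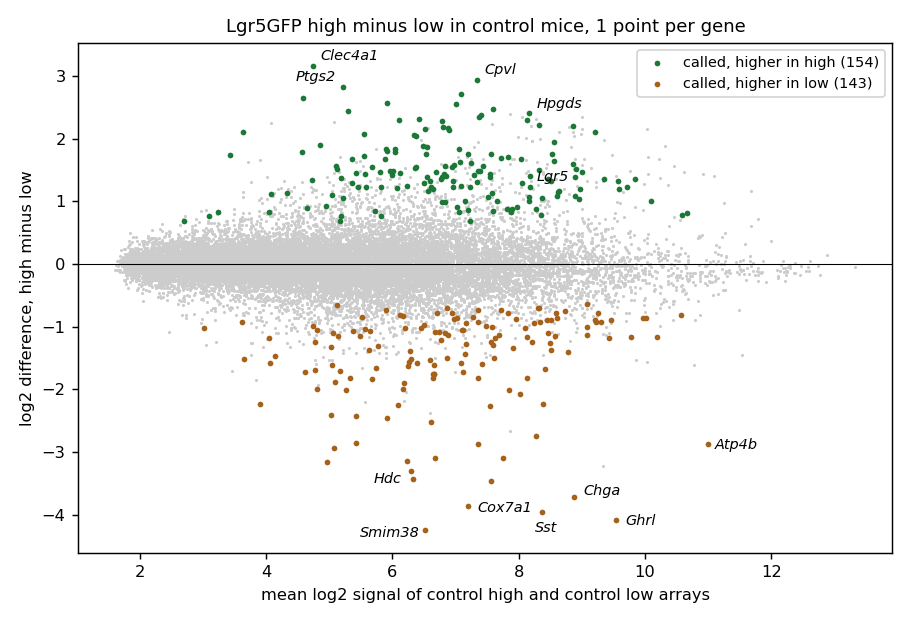
Each point is 1 gene: the x axis gives its mean log2 signal over the 3 control high and 3 control low arrays, the y axis its log2 difference, high minus low. Green points are the 154 genes called higher in high and brown points the 143 called higher in low. The largest differences lie below the line, with Smim38 at -4.24, while the largest above it is Clec4a1 at 3.16.

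Of 19 measured tuft cell genes, 2 were called higher in high cells, beside 0.694% of all genes, and none higher in low. The list's median difference was 1.67, beside 0.00 over all genes. The difference was positive for 18 of the 19, and for 17 the high arrays lay above all low arrays, beside 8.31% of all genes. In a bulk sample, fewer cells of a type and less RNA per cell cannot be told apart. The mean level of the list was 9.98, 9.47 and 9.22 in high, 8.67, 7.37 and 7.89 in low, and 6.51, 5.81 and 6.79 in negative cells. The low arrays thus lay between the high and the negative arrays. Without low 2 the list's median was 1.26, and without low 1 it was 2.14. With the sorting run as a block over all 21 arrays, 8 of the 19 genes were called higher in high, where 0.897% of all genes were. With that block in the 6 arrays alone, 18 of the 19 were, where 326 of 22180 genes were called higher in high.

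The 2 called tuft cell genes encode enzymes of eicosanoid synthesis. Hpgds, the haematopoietic prostaglandin D synthase, read 9.92, 9.33 and 8.84 in high and 7.59, 6.20 and 7.11 in low cells. The difference was 2.40 ± 0.57 (5.26-fold, limma adjusted p = 0.038). Ltc4s, leukotriene C4 synthase, read 10.67, 10.13 and 9.96 in high and 8.87, 7.43 and 8.18 in low cells, a difference of 2.10 ± 0.47 (4.27-fold, limma adjusted p = 0.026). Both calls were lost without high 1, high 2, low 2 or low 3, with limma adjusted p up to 0.26 for Hpgds and 0.19 for Ltc4s. Other eicosanoid genes of the list did not pass. Alox5, the 5-lipoxygenase, differed by 1.47 ± 0.69 (limma adjusted p = 0.45), and Alox5ap, its activating protein, by 1.43 ± 0.52 (limma adjusted p = 0.23). Ptgs2, the inducible cyclooxygenase that makes the substrate of Hpgds, is no member of the list. It read 7.21, 6.32 and 6.35 in high and 4.22, 3.11 and 4.07 in low cells, at least 5.21-fold higher in high (limma adjusted p = 0.0018). That call did not depend on any single array.

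Pou2f3, the transcription factor on which tuft cells depend, read 10.34, 9.89 and 9.43 in high and 8.69, 6.69 and 7.72 in low cells. The groups did not overlap, but the difference of 2.19 ± 0.62 did not pass (limma adjusted p = 0.092). It passed with the sorting run as a block (adjusted p = 0.022). Dclk1, a kinase used as a tuft cell marker, read 11.63, 11.18 and 10.91 in high and 10.37, 9.09 and 9.55 in low cells (1.57 ± 0.57, limma adjusted p = 0.23). It passed only with the block in the 6 arrays alone. Its values in low cells still lay above its mean of 7.33 in negative cells. Trpm5, the cation channel of taste signalling, differed by 1.71 ± 0.59, its partner Plcb2, a phospholipase C, by 1.67 ± 0.52, and Gnat3, the taste G protein gustducin, by 1.27 ± 0.72, and none of these passed. With the block, Plcb2, Avil, which encodes advillin, Sh2d7, Gfi1b, Vav1, Pou2f3, Hpgds and Ltc4s passed. Gnb3 was the member with a negative difference, -0.12, and it lay below the background guide in both groups. Tas1r3, a taste receptor subunit, is no member of the list and was picked after its values were seen. It read 7.73, 7.27 and 7.09 in high and 5.61, 4.73 and 5.60 in low cells (2.05 ± 0.42, limma adjusted p = 0.014), and lost its call without high 1 or low 2 (up to 0.12).

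POU-domain factors, the family of Pou2f3, are known to bind the octamer ATGCAAAT. The octamer was searched on both strands in RefSeq promoter windows (GRCm38), which hold 250 bases before and 50 after a gene's start. It was in 318 of 16990 measured genes with a window (1.87%), in 4 of 133 called higher in high (3.01%), in 2 of 114 called higher in low (1.75%) and in 1 of 15 tuft cell genes. The 4 genes were Hpgds, Dll1, Blnk and Cables2. A match describes these letters and is no evidence of binding. The 100 bases around the match are shown for the called tuft cell gene and for the called Notch ligand, with the octamer or its reverse complement in capitals, on the gene's strand.
Hpgds, chr6:65144851-65144950, minus strand, match 174 bases upstream: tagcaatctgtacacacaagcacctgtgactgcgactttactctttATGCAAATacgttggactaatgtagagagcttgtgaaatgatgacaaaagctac
Dll1, chr17:15375974-15376073, minus strand, match 219 bases upstream: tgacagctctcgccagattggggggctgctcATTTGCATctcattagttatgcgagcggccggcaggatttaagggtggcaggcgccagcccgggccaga

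The called genes with the largest differences toward high cells lay outside the tuft cell list, apart from Hpgds. Clec4a1, a C-type lectin receptor known from myeloid cells, read 7.22, 6.55 and 5.20 in high and 3.73, 2.76 and 3.00 in low cells, at least 4.22-fold higher in high (limma adjusted p = 0.003). Fcna, which encodes ficolin A, a lectin of the complement system, read 8.65, 8.55 and 8.11 in high and 6.55, 5.10 and 5.52 in low cells (2.71 ± 0.52). Cpvl, a serine carboxypeptidase, read 9.32, 8.60 and 8.50 in high and 6.0, 5.62 and 5.99 in low cells (2.94 ± 0.49). That the groups of these 3 genes did not overlap follows from how the largest differences were chosen. Beside these genes, 12 of 18 immune cell markers lay below the background guide in both groups, and no marker passed. The mean level of the immune list was 4.06 to 4.27 in high, 3.80 to 4.10 in low and 4.06 to 4.31 in negative cells. Cd3e, Cd8a and Cd79a, which define T and B cells, read at most 4.02 on any of the 6 arrays. Adgre1, a macrophage marker, read at most 4.15. Not every marker was that dim. Cd68, a lysosomal protein of macrophages, had means of 4.99 in high and 4.18 in low cells (limma adjusted p = 0.15). Ptprc, the pan-leukocyte phosphatase CD45, read 9.80, 9.10 and 8.25 in high and 7.67, 6.11 and 6.21 in low cells. Its difference of 2.39 ± 0.76 did not pass (limma adjusted p = 0.14). It passed with array weights and with the sorting run as a block in the 6 arrays alone. The part of immune cells in these results was not tested.

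Pcdh20, a protocadherin, read 8.65, 7.91 and 8.29 in high and 5.81, 5.65 and 5.75 in low cells (2.55 ± 0.40, limma adjusted p = 0.0026). The 3 low arrays lay within a narrow range, well below the high arrays. Heg1, a membrane protein of endothelial junctions, differed by 2.31 ± 0.39, and Tek, the angiopoietin receptor TIE2, by 2.29 ± 0.48. Tek read 8.39, 6.51 and 6.85 in high and 5.50, 3.95 and 5.42 in low cells. It was the 1 called gene among 11 endothelial cell markers, whose median was 0.00, where 0.694% of all genes were called higher in high. Of those markers, 8 lay below the background guide in both groups, including Pecam1 with means of 3.97 in high and 4.18 in low and Cdh5 with 3.28 and 3.30. Bmx, a Tec-family tyrosine kinase, differed by 2.47 ± 0.49, Shisa6, an AMPA receptor auxiliary protein, by 2.56 ± 0.46, and Pcolce2, an enhancer of procollagen processing, by 2.3 ± 0.52. Fads2b, of the fatty acid desaturases, and Smpx, a muscle protein, were at least 3.14-fold and 4.79-fold higher in high. Itprid1 and Cyria differed by 2.38 ± 0.57 and 2.34 ± 0.50. Calls of Clec4a1, Cpvl, Ptgs2, Pcdh20 and Heg1 did not depend on any single array. Without high 1 the calls of Fcna, Fads2b, Shisa6, Bmx, Smpx, Itprid1, Cyria, Pcolce2 and Tek were lost, and all of these but Shisa6 were also lost without low 2. Without low 3 those of Fads2b, Smpx, Itprid1 and Pcolce2 were lost, and the last 3 also without high 2. The highest adjusted p among these was 0.24, for Itprid1.

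**Figure D2:**
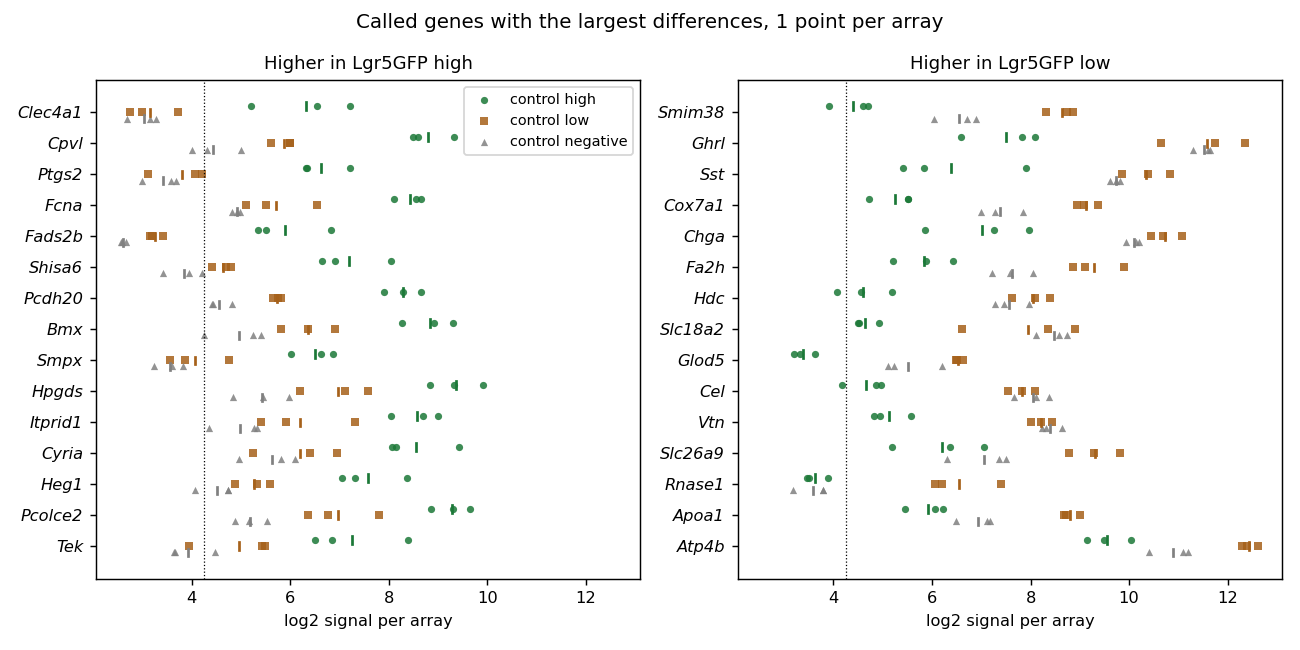
Each row is 1 of the 15 genes with the largest log2 difference toward high (left) or low cells (right) among called genes whose high and low arrays do not overlap and whose brighter mean lies above background, and the x axis gives log2 signal with 1 point per array (circles control high, squares control low, triangles control negative) and a bar at each group mean. The dotted line marks the background guide of 4.25. That circles and squares do not overlap follows from this choice. Negative cells lie near the low cells for Ghrl, Sst, Chga and Cel.

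Some endocrine cell genes were higher in low cells. Of 21 measured genes of the enterochromaffin-like and endocrine list, 5 were called higher in low, beside 0.645% of all genes. None was called higher in high. With the sorting run as a block in the 6 arrays alone, 10 were called higher in low, where 191 of 22180 genes were. The list's median was -1.01, and the low arrays lay above the high arrays for 11 genes, beside 7.81% of all genes. The list's mean level was 5.04, 5.06 and 5.13 in high, 5.93, 6.58 and 6.89 in low and 6.02, 6.16 and 6.37 in negative cells. Low and negative cells thus lay in the same range. Ghrl, which encodes the hunger hormone ghrelin, read 6.59, 8.10 and 7.82 in high and 10.65, 12.36 and 11.74 in low cells. Its difference was -4.08 ± 0.94, 16.9-fold higher in low (limma adjusted p = 0.029), and its mean in negative cells was 11.51. Sst, which encodes somatostatin, the inhibitor of acid secretion, read 5.41, 5.83 and 7.91 in high and 9.85, 10.82 and 10.38 in low cells (-3.96 ± 0.81, 15.6-fold). Chga, the granule protein chromogranin A, read 7.96, 7.25 and 5.85 in high and 10.45, 11.07 and 10.69 in low cells (-3.72 ± 0.77, 13.1-fold). The high arrays of each of these 3 genes were widely spread. That they did not overlap the low arrays follows from how the largest differences were chosen.

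The pair of genes that make and store histamine was called. Hdc, histidine decarboxylase, read 5.19, 4.56 and 4.07 in high and 7.62, 8.40 and 8.10 in low cells, 10.8-fold higher in low (limma adjusted p = 0.00032). Slc18a2, the vesicular monoamine transporter that loads histamine into granules, read 4.92, 4.50 and 4.52 in high and 6.61, 8.91 and 8.35 in low cells, 9.93-fold higher in low (limma adjusted p = 0.00032). Calls of Hdc and Slc18a2 did not depend on any single array. Those of Ghrl and Sst were lost without high 1, high 2 or low 2 (Ghrl also without low 3), with adjusted p up to 0.22 and 0.13, and that of Chga without high 3 or low 2 (up to 0.092). Chgb, which encodes chromogranin B, differed by -2.67 ± 1.06 (limma adjusted p = 0.30). Tph1, the serotonin-making enzyme, read 3.61, 3.77 and 6.39 in low cells, high on the third array alone. Cpe, carboxypeptidase E, was a member with a positive difference, 1.40 ± 0.53 (limma adjusted p = 0.25).

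Some parietal cell genes were also higher in low cells. Of 20 measured, 8 were called higher in low and none higher in high, the median was -1.09, and the low arrays lay above the high arrays for 15. Over all genes 0.645% were called higher in low, and 7.81% had low arrays above all high arrays. The list's mean level was 6.76, 6.89 and 6.87 in high, 8.34, 8.05 and 7.92 in low, and 7.45, 7.09 and 7.36 in negative cells. The low cells were therefore above both neighbours on every array. The proton pump that acidifies the stomach has a catalytic and a glycoprotein subunit. Atp4b, the glycoprotein subunit, read 10.04, 9.49 and 9.15 in high and 12.61, 12.39 and 12.30 in low cells (-2.87 ± 0.70, 7.33-fold, limma adjusted p = 0.043). Atp4a, the catalytic subunit, read 10.32, 11.38 and 10.76 in high and 12.44, 12.26 and 12.10 in low cells, which did not pass (-1.45 ± 0.48, limma adjusted p = 0.17). The groups did not overlap for either subunit. High cells still had signal of both far above the background guide.

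Channels and transporters of acid secretion made up much of the called group. Kcnj16, an inward rectifier potassium channel, read 5.21, 4.44 and 4.42 in high and 7.88, 6.88 and 6.70 in low cells (-2.46 ± 0.33, 5.50-fold, limma adjusted p = 0.00051). Slc26a9, a chloride transporter, read 6.37, 5.18 and 7.05 in high and 9.82, 8.79 and 9.29 in low cells (-3.10 ± 0.75, limma adjusted p = 0.042). Kcne2, the partner subunit of the apical potassium channel, differed by -1.75 ± 0.36, Aqp4, a water channel, by -1.71 ± 0.28, and Clic6, a chloride intracellular channel protein, by -1.13 ± 0.20. Kcnq1, the pore subunit that pairs with Kcne2, did not pass (-0.52 ± 0.36, limma adjusted p = 0.74). Ezr, the membrane linker ezrin, differed by -1.37 ± 0.27. Esrrg, a nuclear receptor of oxidative metabolism, read 6.85, 6.46 and 5.92 in high and 9.03, 8.60 and 8.37 in low cells (-2.26 ± 0.28, 4.78-fold, limma adjusted p = 0.0002). Hrh2, the histamine receptor of the parietal cell, differed by -1.05 ± 0.31 (limma adjusted p = 0.11, and 0.034 with the sorting run as a block). It was 1 of 19 receptors for secretagogues, of which none passed (median -0.22). Calls of Kcnj16, Esrrg, Aqp4 and Clic6 did not depend on any single array. Those of Aqp4 and Clic6 were lost when only the 6 arrays were fitted, and that of Aqp4 also with the block in those 6. The call of Atp4b was lost without any 1 of the 6 arrays (adjusted p up to 0.15), and that of Slc26a9 without any 1 but high 3 (up to 0.17). Kcne2 was lost without high 1, high 3 or low 2 (up to 0.14), and Ezr without high 2 (0.061).

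Esrrg belongs to the estrogen-related receptors, which are known to bind the extended half-site AAGGTCA. Searched on both strands in the same windows, it was in 794 of 16990 genes (4.67%), 8 of 114 called higher in low (7.02%), 4 of 133 called higher in high (3.01%) and 1 of 13 parietal cell genes. The 8 genes called higher in low were Acacb, Atp5g3, Cel, Gfm1, Gstk1, Kcnj16, Meg3 and Timm44. The 2 stretches of 100 bases shown are those of the parietal channel gene and of Cel, described among the secretory genes, with the reverse complement of the half-site in capitals, on the gene's strand.
Kcnj16, chr11:110967797-110967896, plus strand, match 190 bases upstream: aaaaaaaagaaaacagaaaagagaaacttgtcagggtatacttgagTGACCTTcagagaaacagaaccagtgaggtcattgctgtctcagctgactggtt
Cel, chr2:28563404-28563503, minus strand, match 28 bases upstream: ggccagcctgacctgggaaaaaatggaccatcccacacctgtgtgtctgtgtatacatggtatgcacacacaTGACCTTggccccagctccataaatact

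Oxidative phosphorylation genes differed by small amounts. Of 35 measured subunits, 8 were called higher in low and none higher in high, the median was -0.61, and all 35 differences were negative, where 49.2% of all genes were positive. For 31 of the 35 the low arrays lay above all high arrays, beside 7.81% of all genes, and 0.645% of all genes were called higher in low. The list's mean level was 8.74, 9.15 and 9.16 in high and 9.55, 9.74 and 9.64 in low cells, with 9.53 to 9.67 in negative cells. High 1 was the lowest of the 6, and without it the median was -0.50. Ndufa10, of respiratory complex I, read 8.25, 9.08 and 9.18 in high and 10.03, 10.01 and 10.06 in low cells (-1.19 ± 0.20, limma adjusted p = 0.0034). Uqcrc1, of complex III, read 8.35, 8.75 and 8.61 in high and 9.53, 9.65 and 9.57 in low cells (-1.01 ± 0.16, limma adjusted p = 0.0027). Sdhb, of complex II, and Cox5a, of complex IV, differed by -0.88 ± 0.17 and -0.81 ± 0.16. Calls of Ndufa10 and Uqcrc1 did not depend on any single array, and those of Sdhb and Cox5a were lost without high 1 (up to 0.097 and 0.12), Cox5a also without low 2. Over the leave-out fits the number of members called higher in low ran from 2 to 10. It was 1 when only the 6 arrays were fitted, and 4 with the sorting run as a block in those 6.

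A further complex IV subunit, Cox7a1, known from heart and skeletal muscle, is no member of that list. It read 4.73, 5.52 and 5.52 in high and 9.09, 9.36 and 8.94 in low cells, with a mean of 7.37 in negative cells. The difference was -3.87 ± 0.36, 14.7-fold higher in low (limma adjusted p = 9e-06). Smim38, which encodes a small membrane protein, read 4.70, 4.60 and 3.9 in high and 8.73, 8.86 and 8.31 in low cells (-4.24 ± 0.44, 18.9-fold, limma adjusted p = 4e-05). The calls of Cox7a1 and Smim38 did not depend on any single array.

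The other called genes with large differences toward low cells included Cel, Rnase1, Apoa1, Vtn, Fa2h and Glod5. Cel, the bile salt-stimulated lipase, read 4.86, 4.96 and 4.17 in high and 7.54, 8.09 and 7.82 in low cells (-3.15 ± 0.39, 8.88-fold, limma adjusted p = 0.0002). It was the 1 called gene of 9 pancreatic acinar cell markers, whose median was -0.05, where 0.645% of all genes were called higher in low. Cpa1, a pancreatic carboxypeptidase on that list, had means of 4.14 in high and 4.13 in low cells, under the background guide. Ptf1a, a transcription factor of pancreatic acinar cells, read 3.40, 3.61 and 3.36 in high and 4.64, 4.46 and 4.79 in low cells, at least 1.30-fold higher in low. That call was lost without any 1 of the 6 arrays (adjusted p up to 0.13) and with the mean of the gene's probe sets. Sycn, the zymogen granule protein syncollin, read 3.88, 3.83 and 3.57 in high and 5.52, 5.25 and 5.68 in low cells, at least 2.36-fold higher in low. Rnase1, a secreted ribonuclease, read 3.46, 3.51 and 3.88 in high and 7.39, 6.20 and 6.06 in low cells, at least 4.93-fold higher in low. Its mean of 3.59 in negative cells lay with the high cells. Apoa1, the main protein of high-density lipoprotein, differed by -2.88 ± 0.35, Vtn, the adhesive plasma protein vitronectin, by -3.10 ± 0.44, and Fa2h, a fatty acid hydroxylase, by -3.46 ± 0.48. Glod5 was at least 4.89-fold higher in low. Calls of Cel, Sycn, Rnase1, Apoa1, Vtn, Fa2h and Glod5 did not depend on any single array.

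Chief cell genes gave no call. Of 15 measured, none passed, and the median was -0.05. The list's mean level was 7.85, 8.69 and 8.73 in high and 8.96, 9.13 and 8.94 in low cells, with high 1 the lowest. Pgc lay so near the top of the table in every population that no difference is read from it. Cblif differed by 0.04 ± 0.18 and Bhlha15, which encodes the secretory maturation factor MIST1, by -0.40 ± 0.39. Cym, which encodes the milk-clotting protease chymosin, read 5.97, 10.64 and 6.56 in high and 11.47, 12.02 and 9.35 in low cells (-3.23 ± 1.20, limma adjusted p = 0.25), a wide spread within high cells. Ctse, cathepsin E, differed by -1.62 ± 0.43 (limma adjusted p = 0.065, 0.047 with the sorting run as a block over all 21 arrays, and 0.057 with the block in the 6 arrays alone). Over the leave-out fits the list's median ran from -0.26 to -0.02, and without high 3 as many as 3 members were called higher in low.

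Apart from Lgr5, no gene of the chief stem and Lgr5 lineage list passed among 14 measured, and its median was -0.05. Runx1, a transcription factor whose enhancer has been used to mark gland stem cells, read 7.66, 7.06 and 7.46 in high and 6.63, 6.33 and 6.77 in low cells (0.81 ± 0.23, limma adjusted p = 0.091). Sox9, a progenitor transcription factor, read 10.27, 9.70 and 10.18 in high and 9.38, 9.06 and 9.45 in low cells (0.75 ± 0.30, limma adjusted p = 0.30). Both had non-overlapping groups. Both passed with the sorting run as a block over all 21 arrays (adjusted p = 0.038 and 0.047), but neither did with the block in the 6 arrays alone (0.053 and 0.058). Wnt target genes gave 1 call of 22, again Lgr5, where 0.694% of all genes were called higher in high. Their median was 0.03. Axin2, a feedback inhibitor of Wnt signalling, differed by -0.20 ± 0.24, Rnf43, a ligase that removes Wnt receptors, by -0.25 ± 0.24, and Tnfrsf19, a TNF receptor family member also called Troy, by -0.26 ± 0.35. Lrig1, a stem cell marker that restrains EGF receptor signalling, differed by -0.86 ± 0.40 and Cd44, the hyaluronan receptor, by 0.69 ± 0.70. Nkd1, another feedback inhibitor, differed by 1.18 ± 0.31 (limma adjusted p = 0.07), and Myc by -1.16 ± 0.32 (limma adjusted p = 0.08). Of 53 Wnt ligands, receptors and pathway genes none passed (median 0.08), with Tcf7l2, a Wnt-responsive transcription factor, at 0.82 ± 0.24.

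Other signalling pathways gave 1 or 2 calls each. Over all genes, 0.694% were called higher in high and 0.645% higher in low. Dll1, a Notch ligand, read 5.29, 5.29 and 4.72 in high and 4.28, 4.21 and 4.13 in low cells, at least 1.81-fold higher in high (limma adjusted p = 0.011). Lfng, a glycosyltransferase that modifies Notch receptors, read 7.67, 7.35 and 7.41 in high and 6.53, 6.40 and 6.77 in low cells (0.91 ± 0.23, limma adjusted p = 0.049, and 0.084 with the sorting run as a block over all 21 arrays). These were the 2 calls among 24 Notch pathway genes, whose median was 0.07. Hes1, a Notch target, differed by -0.61 ± 0.35 and did not pass. Bmp2, a ligand of the BMP pathway, read 7.49, 7.11 and 6.78 in high and 5.89, 5.46 and 5.42 in low cells (1.53 ± 0.26, 2.89-fold, limma adjusted p = 0.004), the 1 call of 34 BMP and TGF-beta genes (median -0.14). Nrg4, a ligand of the receptor ERBB4, read 5.45, 5.58 and 5.53 in high and 5.09, 4.68 and 4.70 in low cells (0.69 ± 0.16, limma adjusted p = 0.029), the 1 call of 23 EGF receptor and ligand genes (median -0.04). The call of Bmp2 did not depend on any single array. Lfng was lost without any 1 of the 6 (adjusted p up to 0.29), Nrg4 without any 1 but low 1 (up to 0.18), and Dll1 without high 1, high 2 or low 2 (up to 0.10).

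Epithelial structure genes differed in both directions. The shares of all genes called were 0.694% higher in high and 0.645% higher in low. Krt8, a keratin of simple epithelia, read 11.20, 10.96 and 10.77 in high and 10.23, 10.02 and 10.34 in low cells (0.78 ± 0.15, limma adjusted p = 0.01). Cldn3, a tight junction protein, read 8.09, 7.66 and 7.41 in high and 6.28, 5.92 and 6.30 in low cells (1.55 ± 0.31, limma adjusted p = 0.011). Krt19, a keratin of ducts and of the gland neck, ran the other way, with 4.82, 6.22 and 6.48 in high and 6.76, 7.27 and 8.06 in low cells (-1.53 ± 0.35, limma adjusted p = 0.027) and a mean of 9.50 in negative cells. These were the 3 calls among 21 adhesion and keratin genes (median 0.32). Ehf, an epithelial ETS transcription factor, read 10.86, 10.50 and 10.16 in high and 9.58, 8.63 and 9.27 in low cells (1.35 ± 0.26, limma adjusted p = 0.01). With Esrrg and Ptf1a it made 3 calls among 36 gastric and foregut transcription factors (median -0.10). Mal2, a membrane trafficking protein, was the 1 call of 18 metaplasia and injury genes (-1.15 ± 0.24, median -0.06). Msmo1, a sterol oxidase, was the 1 call of 17 cholesterol synthesis genes (1.13 ± 0.25, median 0.43), and 14 of the 17 were positive. Calls of Krt8, Cldn3, Ehf, Krt19 and Msmo1 were lost without high 1 or low 2, Krt19 also without low 3 and Msmo1 also without low 1, with adjusted p up to 0.23. That of Mal2 was lost without high 2, high 3 or low 1 (up to 0.079).

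**Figure D3:**
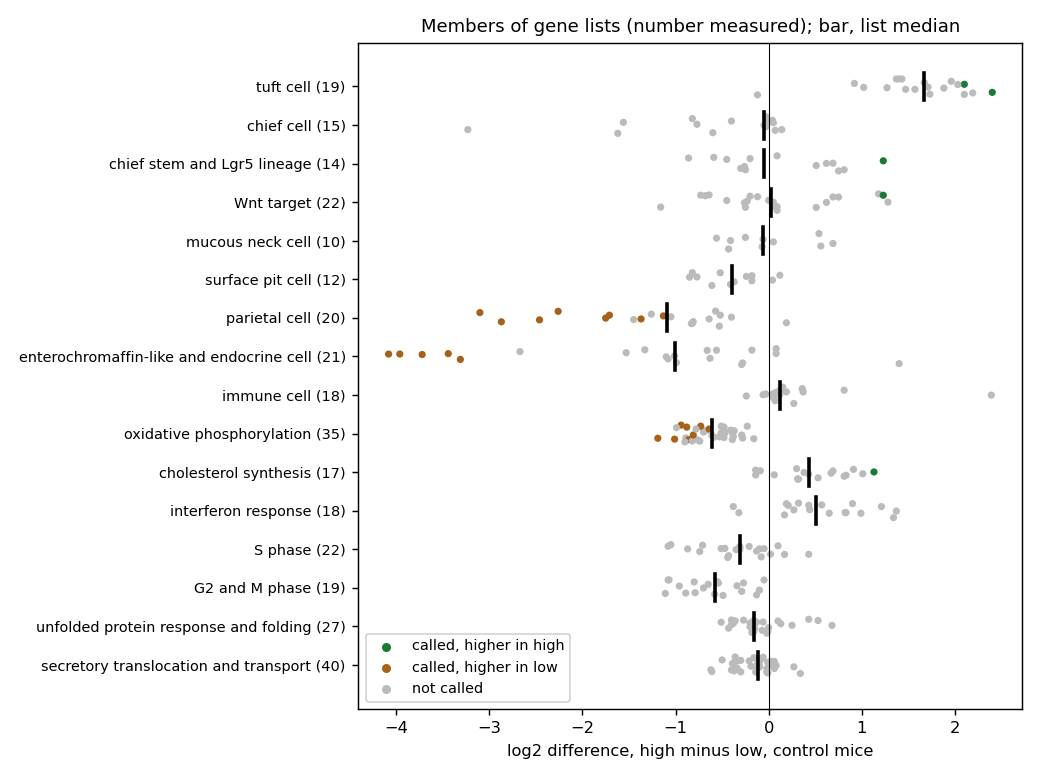
Each point is 1 measured gene of a list, the x axis gives its log2 difference, high minus low, and black bars are list medians; the number measured is in parentheses. Green and brown points are genes called higher in high or in low cells, and grey points did not pass. Tuft cell genes lie to the right (median 1.67), and parietal (-1.09), endocrine (-1.01) and oxidative phosphorylation genes (-0.61) to the left.

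Cell cycle genes set low 3 apart from the other arrays. The mean level of 19 G2 and M phase genes was 4.51, 4.77 and 5.56 in high and 4.56, 5.11 and 6.97 in low cells, against 7.71 to 8.21 in negative cells. All 19 differences were negative, with a median of -0.58, but none passed, and without low 3 the median was 0.10. Mki67, a marker of cycling cells, read 4.39, 5.10 and 6.28 in high and 5.18, 5.79 and 8.12 in low cells (-1.11 ± 0.64, limma adjusted p = 0.63). S phase genes had a median of -0.31, and -0.01 without low 3, and none of 22 passed. Isthmus and progenitor genes had a median of -0.73, and 0.08 without low 3, and none of 10 passed. The count of calls over all genes was 210 without low 3.

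Mucous neck and surface pit cell lists gave no call. Among 10 mucous neck genes (median -0.07), Muc6, a gel-forming mucin, read 8.69, 10.70 and 11.84 in high and 10.29, 11.16 and 11.46 in low cells. Tff2, a trefoil peptide of neck cells, lay from 11.81 to 12.79. The mucous neck median was 0.31 without high 1 and -0.32 without high 3, so its sign rested on single arrays. Among 12 pit genes (median -0.39), Muc5ac, the surface mucin, read 5.48 to 7.07 on the 6 arrays against a mean of 11.13 in negative cells, and Gkn1, a gastrokine, 7.73 to 9.73 against 12.78. Of 10 mast cell markers 9 lay below the background guide in both groups. Kit, the stem cell factor receptor, was the other, at 1.44 ± 0.43 (limma adjusted p = 0.11). None of 12 fibroblast and smooth muscle markers (median 0.01) or 9 squamous epithelium markers (median 0.14) passed.

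Stress and housekeeping lists gave no call either. These were unfolded protein response and folding (27 genes, median -0.16), secretory translocation and transport (40, -0.11), ribosome biogenesis (21, -0.22), lysosome and autophagy (21, -0.19), immediate early (23, -0.27), heat shock (10, -0.10), NRF2 target (16, -0.07) and p53 target genes (16, 0.13). Cdkn1a, the p53-induced cell cycle inhibitor, read 10.55, 9.82 and 9.90 in high and 9.27, 8.88 and 9.22 in low cells, and its difference of 0.97 ± 0.38 did not pass (limma adjusted p = 0.30). None of 18 interferon response genes passed (median 0.51). Irf7, a regulator of that response, read 8.03, 8.62 and 6.38 in high and 7.10, 6.81 and 5.11 in low cells, low on the third array of both populations. Antigen presentation (12, -0.07), inflammatory response (23, -0.01) and Hedgehog pathway genes (11, -0.02) also gave none.

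**Figure D4:**
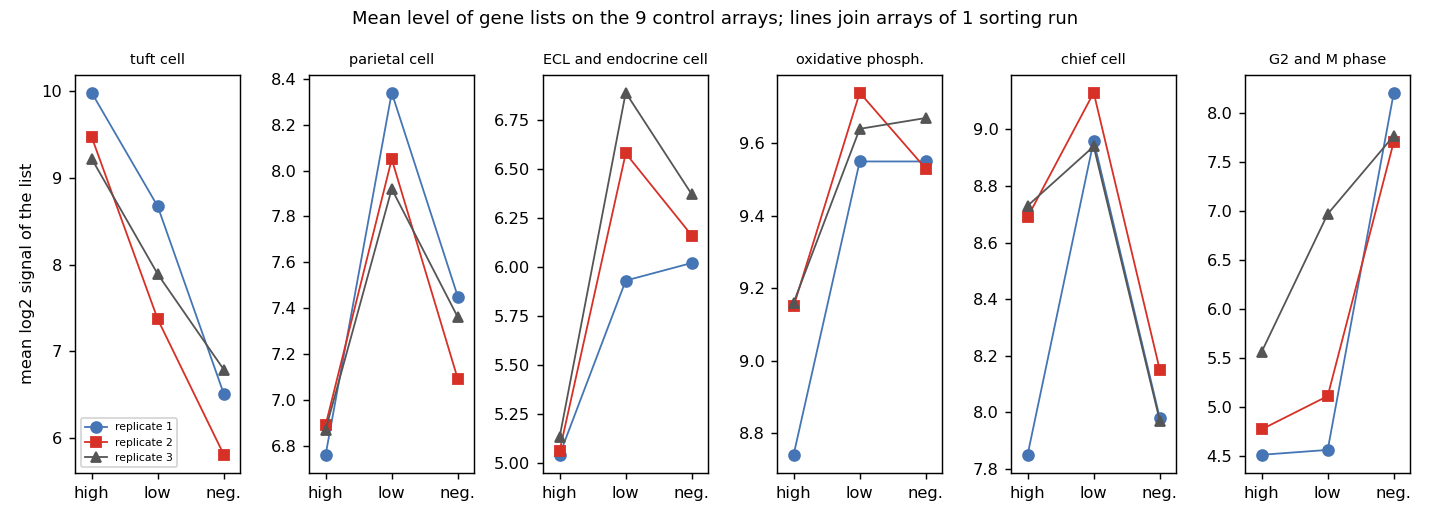
Each panel gives the mean log2 signal of 1 gene list on the 9 control arrays; the x axis gives the population (high, low, negative), and lines join the 3 arrays of 1 sorting run. Tuft cell genes are highest in high cells in every run, parietal cell genes are highest in low cells in every run, and G2 and M phase genes reach 6.97 in low replicate 3 against 4.56 and 5.11 in the other low arrays.

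One microRNA locus was called. Mir365-1 read 5.75, 4.51 and 3.81 in high and 2.42, 2.84 and 2.51 in low cells, at least 1.36-fold higher in high (limma adjusted p = 0.0037). The call did not depend on any single array, but the difference ran from 1.56 to 2.54, and 1 of the high values lay below the background guide. The probe set is named for the locus, and which mature strand or precursor it reads was not tested. Its mature sequences from RefSeq (GRCm38, chromosome 16, plus strand) are shown as the only called microRNA, with the seed, bases 2 to 8, in capitals.
mmu-miR-365-1-5p: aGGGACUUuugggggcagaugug
mmu-miR-365-3p: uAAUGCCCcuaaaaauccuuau

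The same contrast in tamoxifen mice took its differences from 8 other arrays, 4 high and 4 low, and none of the 6. Its spread was pooled in the same fit of all arrays, the 6 included. The calls in control and tamoxifen mice are therefore not independent. In tamoxifen mice, 715 genes passed (3.22%), 323 higher in high (1.46%) and 392 higher in low (1.77%). That count ran from 365 without tamoxifen low 1 to 1118 without tamoxifen high 1. It was 437 without tamoxifen low 2. The share of calls that were higher in high was 45.2%, and 64.4% after cyclic loess normalization. Of the 154 genes called higher in control high cells, 77 (50%) were called higher in tamoxifen high cells and 143 were positive there, where 48.1% of all genes were positive. Those 77 are 23.8% of the tamoxifen calls in that direction. Of the 143 called higher in control low cells, 33 (23.1%) were called higher in tamoxifen low cells and 131 were negative. Those 33 are 8.42% of the tamoxifen calls in that direction. The median difference in tamoxifen mice was 0.89 for the first set and -0.55 for the second. The sets were chosen on the control values, so their sizes there are not comparable with these medians.

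For the genes described above, the values in the 2 treatments stand side by side. Hpgds differed by 3.9 in tamoxifen mice against 2.40 in control mice, and Ltc4s by 3.37 against 2.10, with interaction limma adjusted p = 0.75 and 0.74. Of the 19 tuft cell genes, 16 were called higher in tamoxifen high cells, beside 1.46% of all genes, with a list median of 3.37. Atp4b differed by -4.36 in tamoxifen mice and Apoa1 by -2.68, both called. Ghrl differed by -1.14 in tamoxifen mice against -4.08 in control mice, and Hdc by -1.0 against -3.44, neither called there, and their interactions did not pass (limma adjusted p = 0.67 and 0.26). Of the endocrine list 1 gene was called higher in tamoxifen low cells and 1 higher in tamoxifen high cells. Over all genes those shares were 1.77% and 1.46%. The list's median there was -0.01.

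The difference between the contrasts, tested as an interaction, passed for 6 genes (0.0271%). With the sorting run as a block 5 passed, 4 of them among the 6: Hamp, Sdcbp2, Sycn and Cel kept their calls, and Neurl3 and Cd68 lost theirs (limma adjusted p = 0.053 and 0.062). The other was Smim38, at -2.82 (limma adjusted p = 0.13 without the block and 0.042 with it). For Cel it was -3.27: Cel lay from 3.99 to 5.17 in tamoxifen high and from 4.22 to 4.66 in tamoxifen low cells, near background in both. Sycn, the other zymogen granule gene, lay from 3.34 to 4.09 on the 8 tamoxifen arrays, with an interaction of -1.88. Sdcbp2, a syntenin family scaffold protein, read 7.92, 7.82 and 7.41 in control high and 6.56, 6.25 and 6.59 in control low cells (1.25 ± 0.25), and differed by -1.02 in tamoxifen mice. It passed in opposite directions in the 2 treatments. Neurl3, a ubiquitin ligase, differed by 1.56 ± 0.25 in control and -0.48 in tamoxifen mice. Hamp, which encodes the iron hormone hepcidin, lay from 1.62 to 2.36 on the 6 control arrays, below the background guide, and from 6.13 to 8.32 in tamoxifen low cells. Cd68, a lysosomal protein of macrophages, differed by 0.81 ± 0.26 in control mice, not called, and by -1.28 in tamoxifen mice. Calls of Hamp, Sdcbp2 and Sycn did not depend on any single array. The count of 6 fell to 3 without control low 2 or without tamoxifen low 1 and was 10 without tamoxifen low 4. Tamoxifen, injection and sorting run cannot be told apart in this comparison.

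**Figure D5:**
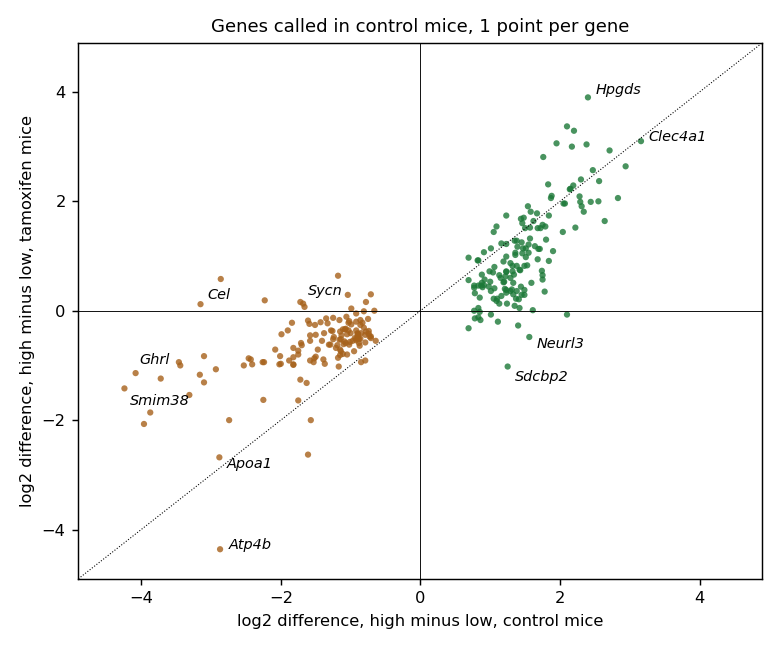
Each point is 1 of the 297 genes called in control mice; the x axis gives its log2 difference, high minus low, in control mice and the y axis the same in tamoxifen mice, with the dotted line at equal values. Of the 154 genes called higher in control high cells (green), 143 lie above 0 on the y axis, and of the 143 called higher in control low cells (brown), 131 lie below it.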

How the data were processed

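Per the labels' protocols, RNA of the sorted cells was turned into amplified cDNA, which was biotinylated for 1-colour arrays. The authors deposited log2 signal per probe set, and the submitters' processing notes name R 3.2.3, limma 3.26.8, RMA and oligo, with no role or order. The array build is not given in the sources used here. Of 41345 probe sets, 23521 name exactly 1 gene, 1814 several and 16010 are not listed. The probe set with the highest mean over the 21 arrays stands for each of 22180 genes, with no filter on level. The labels' source names of the control negative arrays say low, while title and cell population say negative, which was used.

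Group means of all 21 arrays were fitted with limma 3.58.1 in R 4.3.3 (lmFit and eBayes, 15 residual and 5.27 prior degrees of freedom), two-sided, with Benjamini-Hochberg adjustment over all genes and a threshold of 0.05. SE is from that model. The method was tested on simulated data with independent arrays and no sorting-run effect, so that test does not cover the pairing described next. Same-run high and low arrays deviated together (correlations of deviations 0.26, 0.22 and 0.32, against -0.27 to -0.02 for other pairs). The run numbers thus pair the samples, as the design text on sorting runs has it. The main fit holds no run term, so its counts, SE and adjusted p leave this pairing out. The run as a block was an alternative. Named genes are the 15 with the largest difference each way among called genes with non-overlapping arrays and a brighter mean above background, leaving out predicted and receptor family genes; up to 4 called members of each of 41 lists; for lists without a call up to 2 members; a panel of lineage genes; and interaction genes. Others, named beside these, were chosen after their values were seen. The comparison and lists were chosen with earlier results of these data known, and a list's direction is no independent support. Alternatives were other normalization, probe set, variance, weight, filter and block settings and leaving out each array.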

Additional observations from a re-analysis of the deposited data

Results flagged for a closer look

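Of 70 groups of 4 arrays checked, 5 held an array far from the others, where chance gives about 1 in 20. All 5 lie in tamoxifen groups, since groups of 3 were not checked. Ptgs2 read 3.71 in tamoxifen low 2 against 3.09 to 3.19 in the other tamoxifen low arrays, all below the background guide. Ghrl read 6.76 in tamoxifen low 3 against 10.59 to 10.95. Cel read 4.66 in tamoxifen low 3 against 4.22 to 4.29. Vtn read 5.21 in tamoxifen high 4 against 4.36 to 4.50. Atp4b read 8.59 in tamoxifen high 3 against 5.01 to 5.48.

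For 6 genes the difference between high and low cells differed between control and tamoxifen mice by the interaction term. Control minus tamoxifen, it was 4.11 for Hamp, 2.28 for Sdcbp2, 2.09 for Cd68, 2.04 for Neurl3, -1.88 for Sycn and -3.27 for Cel.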

How the results depend on the processing

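The 297 calls between control high and low cells became 636 with array weights, 147 in the 6 arrays alone and 517 in those with the replicate block; leaving out 1 array gave 77 to 421. With the replicate block over all 21 arrays 370 passed, and 268 of the 297 were among them. Between control high and low cells the block ended 1 of 55 calls among the named genes (Lfng) and added 6 among the 63 not called; it changed no other call of a named gene in that comparison. Of the 6 interaction calls it ended those of Neurl3 and Cd68 and added Smim38, giving 5. For tamoxifen mice, 715 became 337 with array weights, 368 at 2-fold or more and 365 to 1118 without 1 array; cyclic loess moved the share higher in high from 45.2% to 64.4%. The 6 interaction calls became 13 with the sorting run as a random block (correlation 0.075) and 3 to 10 without 1 array. Other settings of the gene table kept these counts within 1.5 times. All 41345 probe sets were also fitted, with adjustment over all of them. Of the 23521 that name 1 gene, 172 then passed between control high and low cells, against 297 in the gene table. Of the 55 calls, 25 held without any 1 control array and 32 in every other setting, and none of the 118 named genes with a call reversed. Signal near background limits genes whose means lie under 4.25.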

Other observations

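Other mitochondrial genes were described by lists put together after the values were seen, so their counts are descriptions. Over all genes 0.645% were called higher in low and 0.694% higher in high. Of 17 genes of pyruvate dehydrogenase and the citric acid cycle, 6 were called higher in low cells and none higher in high, and all 17 differences were negative (median -0.78). The mean level of that list was 7.96, 8.14 and 8.22 in high and 8.88, 8.86 and 8.90 in low cells. Fh1, fumarate hydratase, read 7.44, 7.98 and 8.29 in high and 9.01, 8.98 and 9.05 in low cells (-1.11 ± 0.18, limma adjusted p = 0.0037). Of 20 genes of branched-chain amino acid and propionate catabolism, 7 were called higher in low (median -0.80), among them Mccc1, a subunit of methylcrotonyl-CoA carboxylase, at -1.25 ± 0.22. Of 16 genes of mitochondrial fatty acid oxidation, 4 were called higher in low and 1 higher in high (median -0.36). Eci1, an enoyl-CoA isomerase, differed by -1.29 ± 0.23, while Slc25a20, the carnitine carrier of the inner membrane, was the call toward high at 1.24 ± 0.30. Cd36, a fatty acid transporter, read 3.49, 3.88 and 4.10 in high and 5.97, 6.45 and 6.27 in low cells, at least 3.96-fold higher in low (limma adjusted p = 0.0084). Of 15 genes of prostaglandin and leukotriene synthesis, 3 were called higher in high, Ptgs2, Hpgds and Ltc4s, and the median was 0.12. Calls of Fh1 and Mccc1 did not depend on any single array. That of Eci1 was lost without high 1 (adjusted p = 0.058), that of Cd36 without high 1 or low 2 (up to 0.068), and that of Slc25a20 without any 1 array but high 3 (up to 0.34).

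The imprinted long noncoding RNAs Meg3 and Rian, which lie in 1 locus, were both called higher in low cells. Meg3 read 5.32, 4.66 and 4.84 in high and 5.84, 6.56 and 6.56 in low cells (-1.38 ± 0.29, limma adjusted p = 0.017). Rian read 3.23, 2.77 and 2.69 in high and 4.38, 4.76 and 4.08 in low cells, at least 1.12-fold higher in low. Ildr1, a tricellular junction protein, and Cd300lf, an immunoglobulin-like receptor, were called higher in high cells, at 1.87 ± 0.31 and 2.19 ± 0.49. The call of Ildr1 did not depend on any single array. Meg3 was lost without high 2, low 2 or low 3 (adjusted p up to 0.11), Rian without low 2 (0.064), and Cd300lf without any 1 array but high 3 (up to 0.23). These genes were picked after their values were seen.

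Probe sets outside the gene table were fitted with all others. Of 16010 probe sets that are not listed, 27 were called (0.169%), 17 higher in high and 10 higher in low. Of 1814 that name several genes none was called. Of 23521 that name 1 gene, 172 were called (0.731%), against 297 of the 22180 genes in the gene table.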
